A study of Mus musculus with 6 samples.

Results

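The 9 genes described here, Ibsp, Spp1, Dmp1, Mepe, Bglap, Bglap2, Bglap3, Sparc and Postn, encode secreted proteins of the bone matrix other than collagen. They were chosen by gene name, and all 9 were found among the 54532 genes listed. The study sequenced RNA of femurs from ovariectomized (OVX) wild type mice, used to model the bone loss that follows loss of estrogen. The labels give 3 OVX libraries from mice given saline and 3 from mice dosed orally with zingerone, a ginger phenol, each day for 8 weeks (100 mg/kg). Values could be tied to the labels for the 3 OVX libraries alone, so every value below is from OVX mice given saline and the zingerone group was not analysed here. Libraries 1, 2 and 3 are the replicates titled 8, 9 and 10 weeks, and the labels do not say what those weeks count. The labels also name RAW264.7, a mouse macrophage-like line, as the cell line, whereas the extraction text describes ground femur. All 8 osteoblast markers of a fixed list had reads in every library, together with 7 erythroid and 6 B cell markers. The 3 libraries held 17017907, 16964740 and 16581579 reads over the genes listed.

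Bone matrix is mostly type I collagen and mineral, and a small set of acidic proteins binds both. Osteocalcin, encoded by Bglap and its copies in mice, is made by osteoblasts and binds mineral through glutamates that are carboxylated with the help of vitamin K. Osteopontin (Spp1), bone sialoprotein (Ibsp), Dmp1 and Mepe are SIBLING proteins, acidic phosphoproteins encoded side by side in the genome, most of which carry an RGD motif that integrins bind. Sparc (osteonectin) binds collagen and calcium, and Postn (periostin) is a matricellular protein best known from periosteum and other connective tissues under load.

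Levels are in FPKM, read counts divided by gene length and by a total for each library. Of the 8 genes whose mean reached 1 FPKM, 6 differed at least 2-fold between the highest and the lowest OVX library, against 5.89% of the 14011 genes that passed the same filter. The highest library was library 2 for 7 of the 8, against 34.8% of those genes. Mepe was highest in library 3, as were 31.9% of those genes, and Bglap3 did not pass the filter. Sparc, Bglap and Bglap2 were lowest in library 3, while Spp1, Ibsp, Dmp1, Mepe and Postn were lowest in library 1 (30.6% and 32.6% of all tested genes were lowest in these libraries). All 8 differed beyond counting noise by a chi-square test of reads over the libraries (Benjamini-Hochberg adjusted p below 0.05 over all genes tested), as did 38.7% of all tested genes. That test compares libraries and not conditions, and calls genes with many reads more easily. In whole femur, fewer cells of a type and less RNA per cell cannot be told apart.

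**Figure D1:**
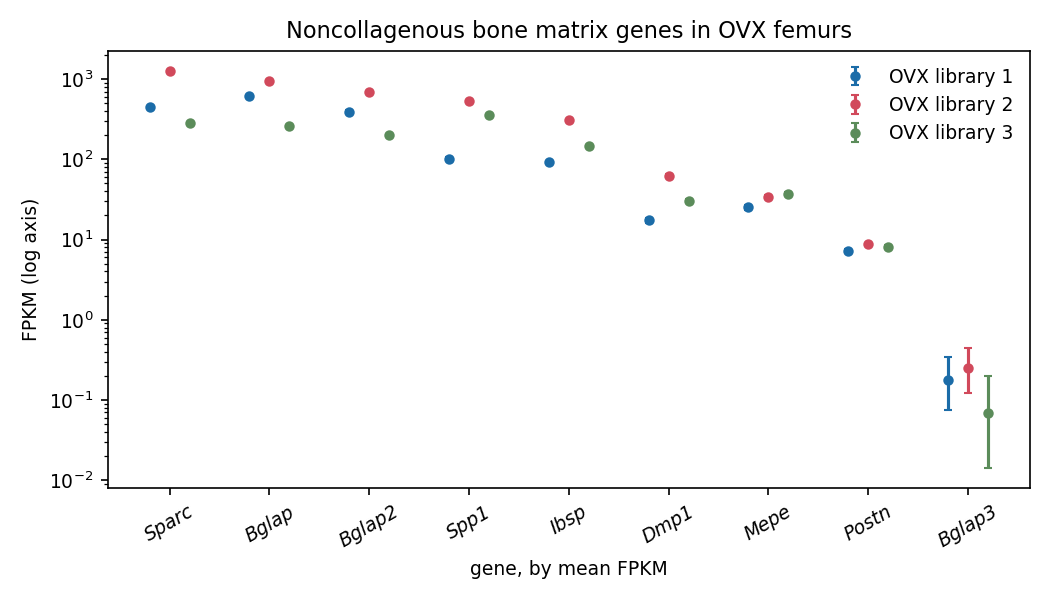
FPKM of the 9 genes on a log axis, with 1 point per OVX library and exact Poisson 95% intervals of the read count (smaller than the point for most genes). The 3 libraries lie far apart for Sparc, from 286 to 1267 FPKM, and close together for Postn, from 7.26 to 8.70.

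The osteocalcin genes lie within 15.8 kb of chromosome 3, all on the minus strand (mm10). Their coding sequences are printed because they decide how well reads can be assigned. They were read from GENCODE release M21 transcripts, 5′ to 3′, each of 288 bases over 4 exons. Capitals in the Bglap line mark bases that differ in Bglap2, and capitals in the other lines mark bases that differ from Bglap.
Bglap: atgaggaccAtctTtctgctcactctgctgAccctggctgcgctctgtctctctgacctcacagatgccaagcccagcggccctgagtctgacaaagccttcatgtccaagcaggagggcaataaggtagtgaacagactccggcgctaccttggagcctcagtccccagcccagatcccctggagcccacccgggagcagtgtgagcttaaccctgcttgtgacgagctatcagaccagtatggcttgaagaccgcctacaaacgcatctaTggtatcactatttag
Bglap2: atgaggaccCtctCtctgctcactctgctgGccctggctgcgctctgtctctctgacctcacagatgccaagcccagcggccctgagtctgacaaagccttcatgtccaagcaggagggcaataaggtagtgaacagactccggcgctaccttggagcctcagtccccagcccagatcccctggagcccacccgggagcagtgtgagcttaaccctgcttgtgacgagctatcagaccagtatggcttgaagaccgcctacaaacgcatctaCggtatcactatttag
Bglap3: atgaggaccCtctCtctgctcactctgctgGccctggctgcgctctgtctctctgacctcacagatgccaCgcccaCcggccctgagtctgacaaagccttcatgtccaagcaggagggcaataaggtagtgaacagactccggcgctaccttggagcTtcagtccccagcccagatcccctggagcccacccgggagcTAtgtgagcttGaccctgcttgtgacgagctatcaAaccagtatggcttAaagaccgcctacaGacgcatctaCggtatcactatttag

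Bglap and Bglap2 differed at 4 of the 288 coding bases (98.6% identity) and shared an unbroken run of 241. Bglap3 differed from Bglap at 13 bases and from Bglap2 at 9. Over the annotated transcripts, 38.7% of 100-base windows of Bglap, 57.0% of those of Bglap2 and 1.03% of those of Bglap3 also occurred in another gene of the trio. With 50-base windows the shares were 56.6%, 88.2% and 11.5%, the last including 3 genes outside the trio. The read length and the treatment of reads with several matches are unknown here, so the division of reads among these 3 genes is uncertain.

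Bglap (ENSMUSG00000074483, chromosome 3, 88383501 to 88384464) stood at 608, 957 and 259 FPKM, from 6493, 9968 and 2650 reads. Bglap2 (ENSMUSG00000074486, 88377736 to 88378699) followed the same order with 394, 693 and 199 FPKM, from 3204, 5497 and 1552 reads. Both were highest in library 2 and lowest in library 3, and no counting interval overlapped another. Library 2 was 3.69-fold above library 3 for Bglap and 3.48-fold for Bglap2. Between libraries 1 and 2 the difference was less than 2-fold for both (0.65 and 0.81 on the log2(FPKM + 1) scale), so the 2-fold difference of Bglap needed library 3. For Bglap2 it was 1.79 over all libraries and 0.98 without library 2. The level of Bglap was 1.54, 1.38 and 1.30 times that of Bglap2 in libraries 1, 2 and 3, a ratio that spread 1.19-fold while each level spread more than 3-fold.

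Bglap3 (ENSMUSG00000074489, 88368616 to 88372743) was close to the limit of detection, with 8, 11 and 3 reads. Its levels were 0.176, 0.248 and 0.0690 FPKM, and the 95% intervals of the 3 libraries overlapped (0.0760 to 0.347, 0.124 to 0.444 and 0.0142 to 0.202). The point values kept the order of Bglap and Bglap2, but no difference between libraries was detectable at this depth. The mean level of Bglap was 608 ± 349 FPKM and that of Bglap3 0.164 ± 0.0902 (SD, n = 3), on a per-length scale.

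The SIBLING genes follow each other on chromosome 5, plus strand, in the order Dmp1, Ibsp, Mepe and Spp1 within 238 kb. Spp1 (ENSMUSG00000029304, 104435118 to 104441050), whose product osteopontin is made by osteoblasts and osteoclasts, stood at 102, 527 and 357 FPKM from 2903, 14622 and 9727 reads. Library 1 was low and libraries 2 and 3 were high, by 5.17-fold and 3.50-fold over library 1. This was the widest spread of the 9 genes, 2.36 on the log2(FPKM + 1) scale, which ranked 120 among 14011 tested genes. Without library 1 it was 0.56. The table also lists Gm42793, a transcript annotated as to be tested on the same strand inside Spp1, at 0.185, 0.948 and 1.01 FPKM, and 5.85% of the 100-base windows of Spp1 transcripts also occur in it.

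Ibsp (ENSMUSG00000029306, 104299171 to 104311469), whose product is a nucleator of hydroxyapatite, stood at 92.1, 305 and 147 FPKM from 3291, 10633 and 5041 reads. Dmp1 (ENSMUSG00000029307, 104202613 to 104214102), a gene of osteocytes and late osteoblasts needed for phosphate balance, stood at 17.4, 62.8 and 30.04 FPKM from 831, 2925 and 1373 reads. Both genes were highest in library 2, intermediate in library 3 and lowest in library 1, and their counting intervals did not overlap between libraries. Library 2 was 3.31-fold above library 1 for Ibsp and 3.61-fold for Dmp1. Without library 2 the log2 differences were 0.67 and 0.75, under the 2-fold line. The level of Ibsp was 5.29, 4.86 and 4.91 times that of Dmp1, the steadiest ratio among the 28 pairs of tested genes, with a 1.09-fold spread.

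Mepe (ENSMUSG00000053863, 104325329 to 104338611), which osteocytes express and whose acidic peptide inhibits mineralization, behaved differently from its neighbours. It stood at 25.4, 33.9 and 37.3 FPKM from 738, 960 and 1038 reads, lowest in library 1 and nearly level in the other two. The intervals of libraries 2 and 3 overlapped (31.8 to 36.1 and 35.1 to 39.7 FPKM). Its spread was 0.54 on the log2(FPKM + 1) scale and differed from counting noise (chi-square test, adjusted p = 1.20e-12), but not without library 1 (adjusted p = 0.0840). The level of Dmp1 over that of Mepe was 0.685, 1.85 and 0.805, so that Dmp1 was the higher of the pair in library 2 alone. Dspp, the SIBLING gene of dentin that lies next to Dmp1, had 0 reads in all 3 libraries, which allows up to 3 reads in each.

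Sparc (ENSMUSG00000018593, chromosome 11, 55394500 to 55423183, minus strand) stood at 447, 1267 and 286 FPKM from 29280, 80831 and 17928 reads. Library 2 was far above the other two, 2.83-fold over library 1 and 4.43-fold over library 3, and no intervals overlapped. The log2 spread of 2.14 was the second widest of the 9 genes, and it was 0.64 without library 2. Sparc supplied most reads of the 9 genes in libraries 1 and 2, with 61.2% and 63.8% of their sum, and 44.3% in library 3. Spp1 supplied 6.07%, 11.5% and 24.0%.

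Postn (ENSMUSG00000027750, chromosome 3, 54361109 to 54391037, plus strand) was low and level, with 7.26, 8.70 and 8.09 FPKM from 1091, 1275 and 1164 reads. Its highest value was 1.20 times its lowest, and the intervals of libraries 2 and 3 overlapped, as did those of libraries 1 and 3 (6.83 to 7.70 and 7.63 to 8.57 FPKM). The difference among libraries passed the chi-square test (adjusted p = 0.00257) and did not pass it without library 1 (0.224) or without library 2 (0.124). FPKM of Postn rest on a listed length of 8702 bases, whereas its longest protein coding transcript has 3205. On that length the mean was 21.8 ± 1.97 in place of 8.01 ± 0.724 (SD, n = 3).

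**Figure D2:**
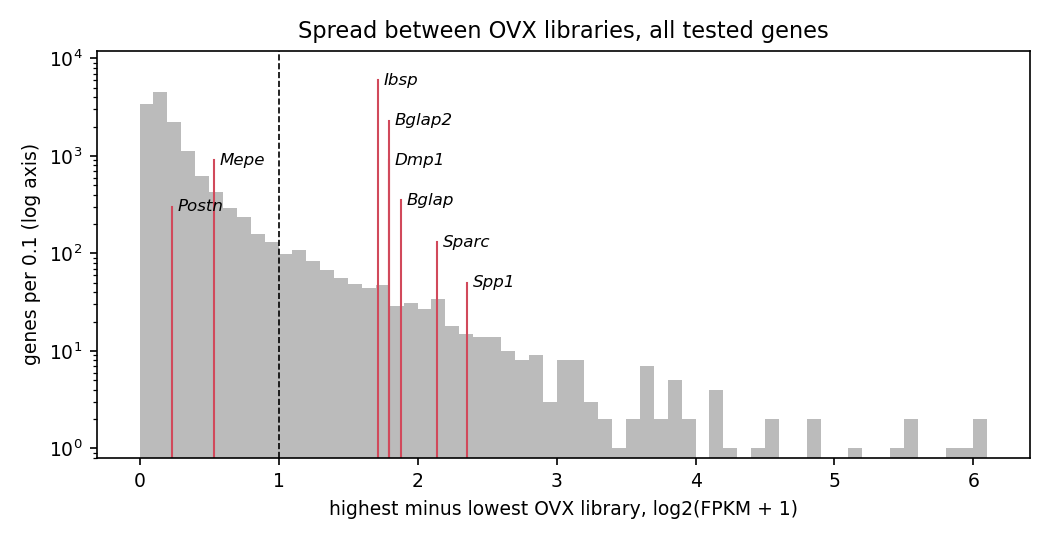
Histogram of the difference between the highest and the lowest OVX library in log2(FPKM + 1) for the 14011 tested genes, with the number of genes per bin on a log axis, the 2-fold line dashed and the 8 tested matrix genes marked in red. Of the 8, 6 genes lie beyond the line, from 1.72 for Ibsp to 2.36 for Spp1, and Mepe (0.54) and Postn (0.23) lie before it.

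By mean level per length the order was Sparc (667 ± 526 FPKM), Bglap (608 ± 349), Bglap2 (429 ± 249), Spp1 (329 ± 214), Ibsp (182 ± 111), Dmp1 (36.8 ± 23.4), Mepe (32.2 ± 6.14), Postn (8.01 ± 0.724) and Bglap3 (0.164 ± 0.0902), each as SD over 3 libraries. Some neighbours, Sparc and Bglap, Bglap2 and Spp1, and Dmp1 and Mepe, changed places with the library, so their order by mean is not settled. On the listed gene lengths Bglap led in library 1, Sparc in library 2 and Spp1 in library 3. Within a library Sparc was 0.736, 1.32 and 1.10 times Bglap, and Bglap2 was 3.86, 1.32 and 0.558 times Spp1. The pairs Bglap over Bglap2, Spp1 over Ibsp, Ibsp over Dmp1 and Mepe over Postn kept their direction in all 3 libraries. With 3 libraries no exact test of such a pair can reach 0.05. On the length of the longest protein coding transcript, the order by mean was the same, but Sparc (471) and not Spp1 (390) led in library 3, and Postn (19.7) exceeded Dmp1 (17.4) in library 1. The 9 genes together took 0.281%, 0.747% and 0.244% of reads (exact Clopper-Pearson 95% intervals 0.279% to 0.284%, 0.743% to 0.751% and 0.242% to 0.246%).

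The genes thus fell into sets by the order of the libraries. Sparc, Bglap and Bglap2 followed the order 2, 1, 3, which 16.5% of all tested genes shared, and Spp1, Ibsp, Dmp1 and Postn followed 2, 3, 1, shared by 18.3%. For Postn this order was not resolved, because the intervals of libraries 2 and 3 and of libraries 1 and 3 overlapped. The ratio of Bglap to Spp1 joined the extremes, at 5.96, 1.82 and 0.727, the widest spread of the 28 pairs (8.21-fold). Between libraries 1 and 3 alone, which leaves out library 2, Bglap was 2.34-fold higher in library 1 and Spp1 3.50-fold higher in library 3. These 2 genes were the ones at least 2-fold apart between those libraries, of 8 tested, against 1.91% of all tested genes.

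**Figure D3:**
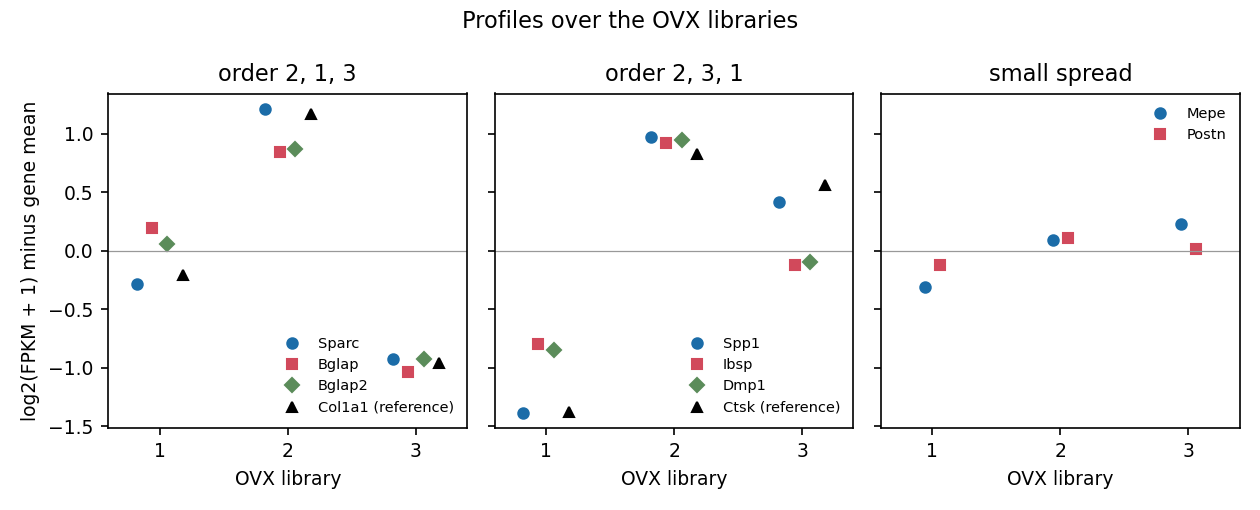
log2(FPKM + 1) of each gene minus its mean over the 3 OVX libraries, by library, with the collagen gene Col1a1 and the osteoclast protease gene Ctsk as black triangles. Sparc, Bglap and Bglap2 lie lowest in library 3 with Col1a1, Spp1, Ibsp and Dmp1 lie lowest in library 1 with Ctsk, and Mepe and Postn stay near 0.

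The genes with the most similar profiles were sought among 5041 other protein coding genes averaging 10 FPKM or more, by Euclidean distance of centred log2(FPKM + 1) over the 3 libraries. Among the 5 nearest to the mean profile of the 9 genes were Rcn3 (27.8, 60.2 and 30.1 FPKM, distance 0.0197), Pcolce (0.0283), Sgms2 (0.0556) and Bgn (0.0780). Pcolce encodes the enhancer of procollagen C-proteinase, and Bgn the proteoglycan biglycan. The mean profile includes Bglap3, which did not pass the filter, and Mepe and Postn, whose spread was small. The same search for single genes was added after the values had been seen. The 3 genes nearest to Sparc were Col11a2 (distance 0.0164), Col1a1 (0.0948) and Col1a2 (0.146), the last 2 encoding the chains of type I collagen. Nearest to Spp1 were Ctsk (0.208), the collagenase gene Mmp13 (0.405) and Acp5 (0.493), of which Ctsk and Acp5 mark osteoclasts. Ibsp and Dmp1 had the same 3 nearest genes, Ptgis (0.138 and 0.179), Fmod (0.167 and 0.193) and Scara3 (0.240 and 0.298). Bglap and Bglap2 were nearest to Scd1, a fatty acid desaturase gene (0.287 and 0.114), followed by Car3 and Col1a2 for Bglap (0.348 and 0.468) and by Cdo1 and Serpinf1 for Bglap2 (0.310 and 0.323). Mepe was nearest to the decoy receptor gene Il1r2 (0.0232), the globin gene Hbb-bt (0.0317) and the macrophage gene Cd5l (0.0846). Postn, whose level hardly varied, was nearest to Tmem86a (0.00458), Atp6ap1 (0.00475) and Wdr43 (0.00739). A profile over 3 libraries is short, and many genes lie close together by such a distance.

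Relative to Col1a1 in the same library, a ratio chosen after the values had been seen, Sparc stood at 72.9%, 79.3% and 78.6%. Its spread of 1.09-fold compares with 4.43-fold for its own level. Bglap stood at 99.0%, 60.0% and 71.2% of Col1a1, whereas Spp1 stood at 16.6%, 33.0% and 98.0%, a 5.90-fold spread. Ibsp stood at 15.0%, 19.1% and 40.5%. Relative to Ctsk, also chosen after the values had been seen, Spp1 stood at 119%, 133% and 108%, a 1.23-fold spread. Bglap stood at 712%, 241% and 78.5% of Ctsk. Col1a1 and Ctsk are among the genes nearest to Sparc and to Spp1 in the search above. The small spreads of Sparc over Col1a1 and of Spp1 over Ctsk therefore follow from the choice of reference.

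**Figure D4:**
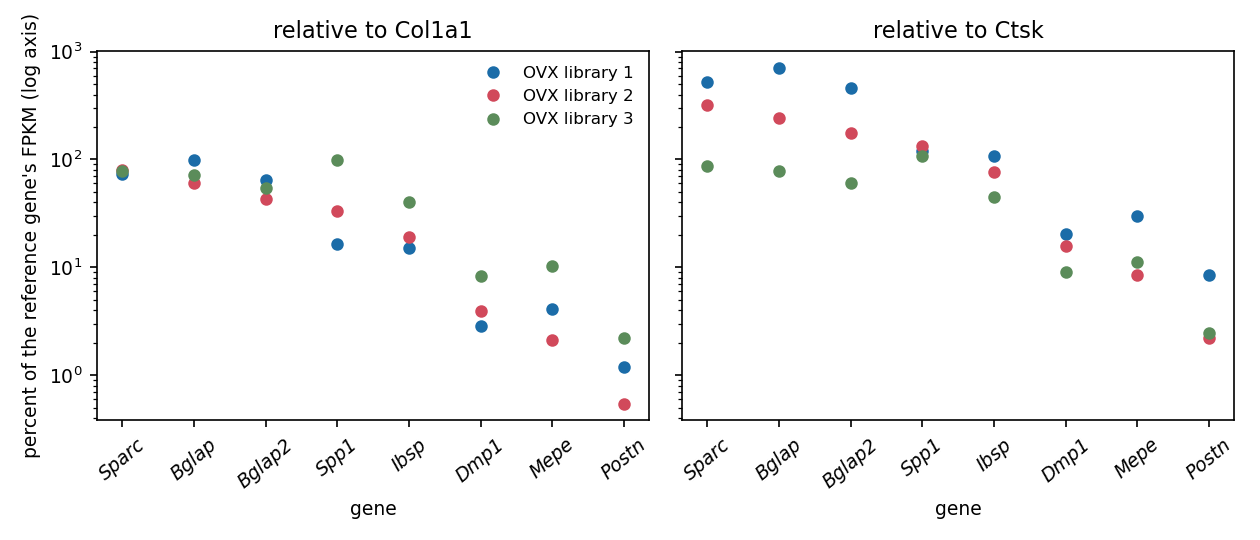
FPKM of 8 matrix genes as a percentage of Col1a1 (left) and of Ctsk (right) in the same OVX library, on log axes, with 1 point per library. Sparc lies together on the left, between 72.9% and 79.3% of Col1a1, and Spp1 on the right, between 108% and 133% of Ctsk.

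Genes that act with these proteins were taken from lists chosen with earlier results of these data known. For each list the median of library 2 minus the mean of libraries 1 and 3 is given in log2(FPKM + 1). It was 1.34 for the 8 tested matrix genes and -0.0039 for all tested genes. Of 12 genes for type I collagen and its modification, all 12 passed the chi-square test, all 12 were highest in library 2 and 6 were at least 2-fold apart, with a median of 0.999. Col1a1 stood at 614, 1597 and 364 FPKM and Col1a2 at 352, 865 and 207, while P4hb, a subunit of prolyl 4-hydroxylase, stood at 136, 154 and 132. Of 25 tested genes of other bone matrix proteins, 24 passed the chi-square test, 21 were highest in library 2 and 13 were at least 2-fold apart, with a median of 0.71. The calcification inhibitor gene Mgp stood at 25.5, 195 and 31.0 FPKM, whereas Thbs1, encoding thrombospondin 1, stood at 87.3, 75.2 and 115.

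Of 11 tested genes listed for the processing of osteocalcin and the SIBLING proteins, 10 passed the chi-square test and 10 were highest in library 2. Of the 11, 4 were at least 2-fold apart, and the median was 0.41. The list is broader than its name and also holds the chaperone genes Serpinh1 and Hsp90b1, with Serpinh1 among those 4. Serpinh1, encoding the collagen chaperone HSP47, stood at 65.8, 168 and 63.5 FPKM, and the chaperone gene Hsp90b1 at 93.2, 87.5 and 87.3. Of 10 tested receptor genes, 8 passed the chi-square test, 5 were highest in library 2 and 0 were at least 2-fold apart, with a median of 0.06. The integrin subunit genes Itgb3 and Itgb1 stood at 97.2, 71.8 and 109 FPKM and at 77.8, 83.7 and 81.4, and Cd44, an osteopontin receptor, at 34.0, 37.5 and 38.7. The osteocalcin receptor candidate Gprc6a had 0 reads in all 3 libraries. Of 10 tested regulators of transcription, 7 passed the chi-square test, 9 were highest in library 2 and 6 were at least 2-fold apart, with a median of 0.93. Sp7, the osteoblast factor osterix, stood at 7.24, 19.8 and 6.19 FPKM, while the widely expressed Atf4 and Cbfb differed by no more than counting noise (adjusted p = 0.514 and 0.0916 by chi-square test). Of 7 mineralization genes, all 7 passed the chi-square test, 6 were highest in library 2 and 3 were at least 2-fold apart, with a median of 0.49. Ank, encoding a transporter that supplies extracellular pyrophosphate, stood at 28.0, 35.1 and 34.6 FPKM, and Alpl, the alkaline phosphatase of osteoblasts, at 17.3, 49.2 and 18.0. The phosphate transporter gene Slc20a1 was lowest in library 2, at 21.7, 18.6 and 20.8.

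Markers of other cells moved with library 2 as well. Of the 8 chondrocyte markers all 7 tested were highest there, with summed levels of 21.9, 377 and 31.7 FPKM and no marker at 0. All 8 skeletal muscle markers were lowest there, with sums of 1481, 130 and 856. The 8 osteoblast markers were all highest in library 2, with 3 lowest in library 1 and 5 lowest in library 3. Their sums (1018, 2609 and 622) rested mostly on Col1a1 and Col1a2, which are also in the type I collagen list. Marker and pathway lists share further genes, among them Sp7, Alpl and Phex, so counts from different lists are not independent. The 5 tested of 6 adipocyte markers were highest in library 2 as well (110, 260 and 56.4, with Lep at 0 in library 3). The 7 tested of 8 osteoclast markers were all highest in library 2 and lowest in library 1, with sums of 398, 1107 and 833. Spp1, Ibsp and Dmp1 had the same order, and so did the chondrocyte sums and the osteoblast markers Alpl, Pth1r and Cdh11. That order was shared by 18.3% of all tested genes. Library 3 was 3.50-fold above library 1 for Spp1, 1.60-fold for Ibsp and 1.73-fold for Dmp1. Of the 8 osteocyte markers 6 were tested and 5 of them were highest in library 2, among them Phex at 5.31, 13.0 and 5.70 FPKM. The sums were 52.5, 56.7 and 49.5. Sost, the tested marker that was lowest in library 2 (36.5, 24.2 and 32.6), made up most of the sum in libraries 1 and 3 but not in library 2. All 6 megakaryocyte markers were lowest in library 2, with sums of 1530, 1008 and 1584. All 7 erythroid markers were highest in library 3 and lowest in library 1, with sums from 43177 to 55408. Sums ran from 23893 to 26115 for neutrophil, 353 to 382 for macrophage, 478 to 526 for B cell, 396 to 445 for marrow stroma and 40.1 to 45.2 for periosteum, tendon and fibroblast markers. Single markers could vary more than these sums. Of 7 tested periosteum, tendon and fibroblast markers 2 were at least 2-fold apart, and of 7 macrophage markers 1 was. The neutrophil, B cell and marrow stroma lists had 0, against 5.89% of all tested genes. The part of these cell types in the levels of the 9 genes was not tested.

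**Figure D5:**
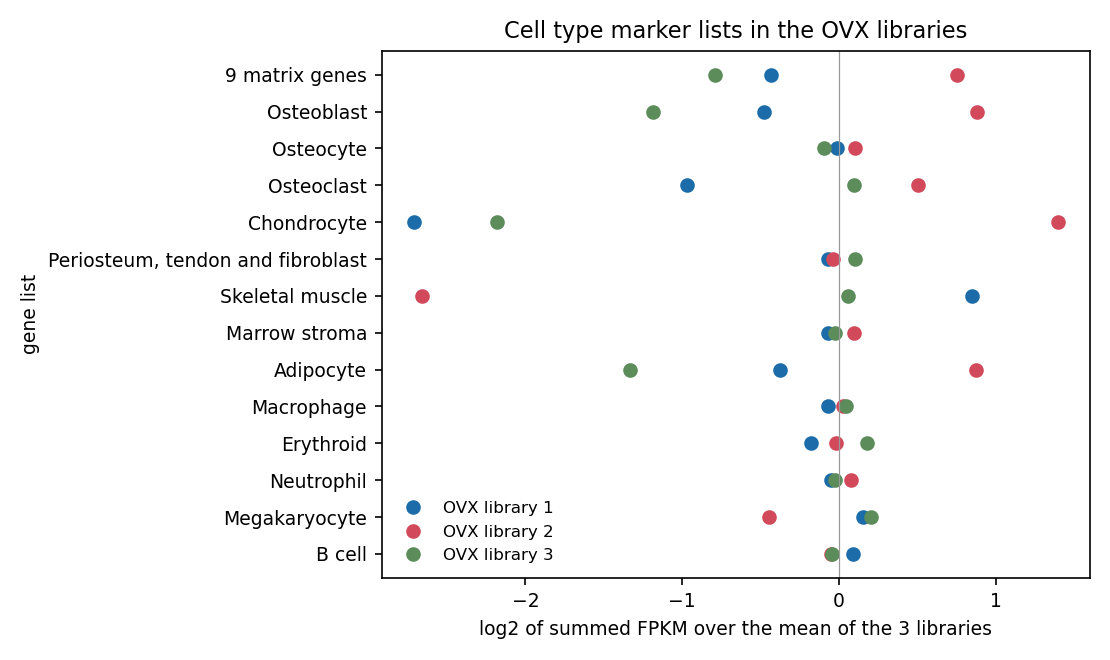
Summed FPKM of the 9 matrix genes and of 13 cell type marker lists in each OVX library, as log2 of the sum over the mean of the 3 libraries. Library 2 is highest for the matrix genes and for osteoblast, osteoclast, chondrocyte and adipocyte lists and lowest for the skeletal muscle and megakaryocyte lists, while marrow stroma, macrophage, neutrophil and B cell lists lie near 0. The osteoblast sum rests mostly on Col1a1 and Col1a2.

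The promoters of the genes were searched because several of them share the order of the libraries and RUNX factors are known to act on bone matrix genes. The 250 bases before the start site were taken from RefSeq (GRCm38.p6), which had an entry for 8 of the 9 genes, all but Bglap2. The entry for Sparc starts 3103 bases from the start listed in the table, and the others within 116. The RUNX core ACCACA, or TGTGGT on the other strand, occurred in 4 of the 8, Bglap, Spp1, Dmp1 and Mepe, and in 14.0% of 32851 promoters of the same length. The stretches around the matches are shown 5′ to 3′ on the gene's strand, with the match in capitals, at chr3:88384573-88384618 (minus), chr5:104434963-104435008 (plus), chr5:104202433-104202478 (plus) and chr5:104325191-104325274 (plus).
Bglap: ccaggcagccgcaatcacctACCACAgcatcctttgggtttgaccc
Spp1: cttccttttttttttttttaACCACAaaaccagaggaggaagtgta
Dmp1: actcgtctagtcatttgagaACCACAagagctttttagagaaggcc
Mepe: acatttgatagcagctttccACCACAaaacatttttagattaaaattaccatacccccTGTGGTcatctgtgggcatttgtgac

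The match began 132 bases before the start site in Bglap, 128 in Spp1, 164 in Dmp1, and 118 and 80 in Mepe. The genes with a match included both orders of the libraries, with Bglap lowest in library 3 and Spp1 and Dmp1 lowest in library 1. Mepe had neither order, being lowest in library 1 but highest in library 3. Sparc, Ibsp, Postn and Bglap3 had no match in these windows. A match is a description of letters and no evidence of binding.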

How the data were processed

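The data are 1 table with 3 usable libraries of OVX femur RNA. Its unit, FPKM, is the one the authors deposited, beside each gene's coordinates, biotype and length in bases. Trimmomatic, FastQC, STAR, featureCounts and the build mm10 are named per the submitters' processing notes, with no order or role. Versions, settings, strandedness, annotation and read length are not given in the sources used. All 9 genes have the same start and end in GENCODE release M21. Columns enter through the library names in the labels, and 3 columns of values matched no such name and were not used. The planned comparison of zingerone with OVX by limma was therefore not run. The design text calls the replicates biological, but animals are not identified in the labels, so the spread between libraries may in part be technical.

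FPKM times length gave whole reads, within a tolerance of 0.05 read, for 100% of the values. Totals behind the FPKM were 17279919, 16845977 and 16533661, above the reads listed in library 1 and below them in libraries 2 and 3. How these totals were derived is unknown here. No pair of libraries agreed within sampling noise (chi-square per gene 40.0, 12.1 and 40.9 for libraries 1 and 2, 1 and 3, and 2 and 3). Of 54532 genes, 14011 had a mean of at least 1 FPKM and were tested by a chi-square test of reads against library totals, with Benjamini-Hochberg adjustment at 0.05. For Sparc, Bglap, Bglap2, Spp1 and Ibsp the p-value was too small for the arithmetic and is not printed. Differences are in log2(FPKM + 1), which understates those of low genes. Intervals (95%, exact Poisson or Clopper-Pearson) and the floor of 3 reads for a count of 0 cover counting error only.

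The 9 genes and the lists (6 of pathway genes and 13 of cell type markers) were chosen with earlier results of these data known. Besides the 9 genes, the rule names as examples at most 4 members of each pathway list, in order of mean FPKM, and the 5 genes nearest to the mean profile, of which 1 is not reported here. Gprc6a, Dspp, Sost, Phex, Lep, Pth1r, Cdh11, Gm42793, Sparcl1, Aspn, Ogn, Matn3 and the reference Ctsk fall outside that rule. So do the genes nearest to single members, and all of these were named after their values were seen. The test was checked on simulated Poisson counts. Apart from genes raised on purpose, these held no variation between libraries, unlike the data, so the check covers counting noise only. Alternatives were other pseudocounts, filters, scalings and gene lengths, and each library left out. Scripts ran in Python 3.11.15 with scipy 1.17.1, numpy 2.4.6, matplotlib 3.10.9 and pandas 2.3.3.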

Additional observations from a re-analysis of the deposited data

How the results depend on the processing

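The 6 genes at least 2-fold apart stayed so with a pseudocount of 0.1 or 5, with no filter, with genes averaging 5 FPKM or more, under median-of-ratios scaling and with FPKM from the reads listed, the last chosen after seeing the data. With 1 library left out, the log2 range ran from 0.64 to 2.14 for Sparc, 0.65 to 1.88 for Bglap, 0.81 to 1.79 for Bglap2, 0.56 to 2.36 for Spp1, 0.67 to 1.72 for Ibsp and 0.75 to 1.79 for Dmp1, so each fell under 2-fold without at least 1 library. The adjusted chi-square p ran from 1.13e-12 to 0.0840 for Mepe and from 0.000745 to 0.224 for Postn. Over all tested genes the count at least 2-fold apart was 825, and became 1254 and 247 when the pseudocount was 0.1 and 5, 307 among genes averaging 5 FPKM or more (fewer genes tested), and 278 to 603 with 1 library left out (521 without library 1 and 278 without library 2). The chi-square count was 5418, and 2527 to 4177 with 1 library left out (3478 without library 1 and 2527 without library 2). No paired analysis was possible because the values of 1 group alone could be tied to the labels. The alternatives planned for the comparison with zingerone were not run for the same reason.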

Other observations

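Among the 25 tested genes of other bone matrix proteins, 4 were lowest in library 2, where the 9 genes described above were mostly highest. They were named after their values had been seen. Sparcl1, the paralogue of Sparc that lies near the SIBLING genes on chromosome 5, stood at 15.4, 6.55 and 14.1 FPKM in libraries 1, 2 and 3. Aspn, encoding the small proteoglycan asporin, stood at 5.70, 1.82 and 8.97, Ogn, encoding osteoglycin, at 11.7, 8.93 and 12.0, and Thbs1 at 87.3, 75.2 and 115. Matn3, the cartilage matrilin, also named after its values had been seen, showed the opposite with 0.0192, 13.7 and 0.0201 FPKM, where the low values rest on 1 read each. Smpd3, the neutral sphingomyelinase needed for mineralization, stood at 5.83, 27.1 and 4.24 FPKM.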
